A study of Mus musculus with 6 samples.

Results

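The kidney's nephron is a tube of segments, each with its own transporters, and each segment is kept distinct by transcription factors that switch on its genes. The 8 genes described here are such factors, chosen by name: Hnf4a, Hnf4g and Maf of the proximal tubule, Pou3f3 of the loop of Henle, the estrogen-related receptors Esrrb and Esrrg of the loop and distal tubule, and Gata3 and Tfcp2l1 of the connecting tubule and collecting duct. They are 8 of the 24422 genes in the count tables, and all 8 passed the filter on low counts that left 15145 genes for testing. The choice of members and of the gene lists below was made with earlier results of these data known. Whole kidneys came from wild type C57BL/6 pups at postnatal day 15 (P15), 3 libraries of a control group and 3 of an iron-deficient (FeD) group. The pups' dams were put on their diets at 8 weeks of age, 220 ppm iron for control and about 2 to 6 ppm for FeD, and stayed on them through breeding, pregnancy and nursing, so that a pup met the diet in utero and through its dam. No gene was deleted and no other agent was given. The labels do not say which kidneys shared a litter or what sex the pups were, and the p-values therefore measure only the spread between these 6 kidneys.

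As background, HNF4A and HNF4G are nuclear receptors that bind the same DNA element and drive metabolic and transport genes of the proximal tubule, and HNF4A is needed for proximal tubule cells to mature. MAF is a large basic leucine zipper factor, POU3F3 (Brn1) is a POU domain factor needed for the loop of Henle to form, and the estrogen-related receptors are orphan nuclear receptors that work with PGC-1 coactivators on genes of mitochondrial energy metabolism. GATA3 acts in the Wolffian duct and later in its descendant, the collecting duct, and TFCP2L1 is a grainyhead-family factor that drives the genes of collecting duct intercalated cells and sets the pattern of intercalated and principal cells. The measurement was RNA sequencing of whole kidney, in which fewer cells of a type and less RNA per cell cannot be told apart.

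Libraries held 13732173 to 20853293 counted reads, and a count of 3, the limit that a count of 0 allows, came to 0.144 to 0.218 CPM (counts scaled to library size), for counting error only. FeD kidney 3 stood apart from the other FeD kidneys: in a test of raw counts between kidneys, chi-square divided by its degrees of freedom came to 24.0 and 30.4 for its 2 pairs, against 11.5 for the remaining FeD pair and 3.77 to 7.36 for control pairs. Xist, the RNA of the inactive X chromosome, was high (14238 to 16079 normalized counts) in control kidneys 1 and 2 and FeD kidney 3 and low (27.99 to 48.04) in control kidney 3 and FeD kidneys 1 and 2, with the Y-linked Ddx3y at 0 to 12.17 in the former and 1367 to 2309 in the latter. The groups were thus unequal in this respect, and each member's FeD to control difference is also given within the high-Xist and the low-Xist kidneys, as values without a test. Normalized counts below are scaled by trimmed mean of M-values (TMM) to the mean effective library size, log2 fold changes are FeD over control, and n = 3 kidneys a group throughout.

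Of the 8 members, 5 rose in FeD kidneys (Hnf4g, Maf, Esrrb, Gata3 and Tfcp2l1), 1 fell (Esrrg) and 2 did not pass (Hnf4a and Pou3f3), in edgeR's quasi-likelihood test at an adjusted p under 0.05. Of all tested genes 45.7% were called, 22.4% higher and 23.3% lower. The largest member change was 1.82-fold, so that 0 of 8 met the additional 2-fold threshold, which 4.34% of tested genes met as higher and 5.69% as lower. The members' log2 fold changes ran from -0.25 to 0.86 with a median of 0.30, and the median over all tested genes was 0.00. For 6 of the 8, every FeD kidney lay on one side of every control kidney, beside 58.1% of all tested genes. Both connecting tubule and collecting duct members, Gata3 and Tfcp2l1, rose. In the proximal tubule group Maf and Hnf4g rose and Hnf4a did not pass, and of the 2 estrogen-related receptors one rose and one fell.

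**Figure D1:**
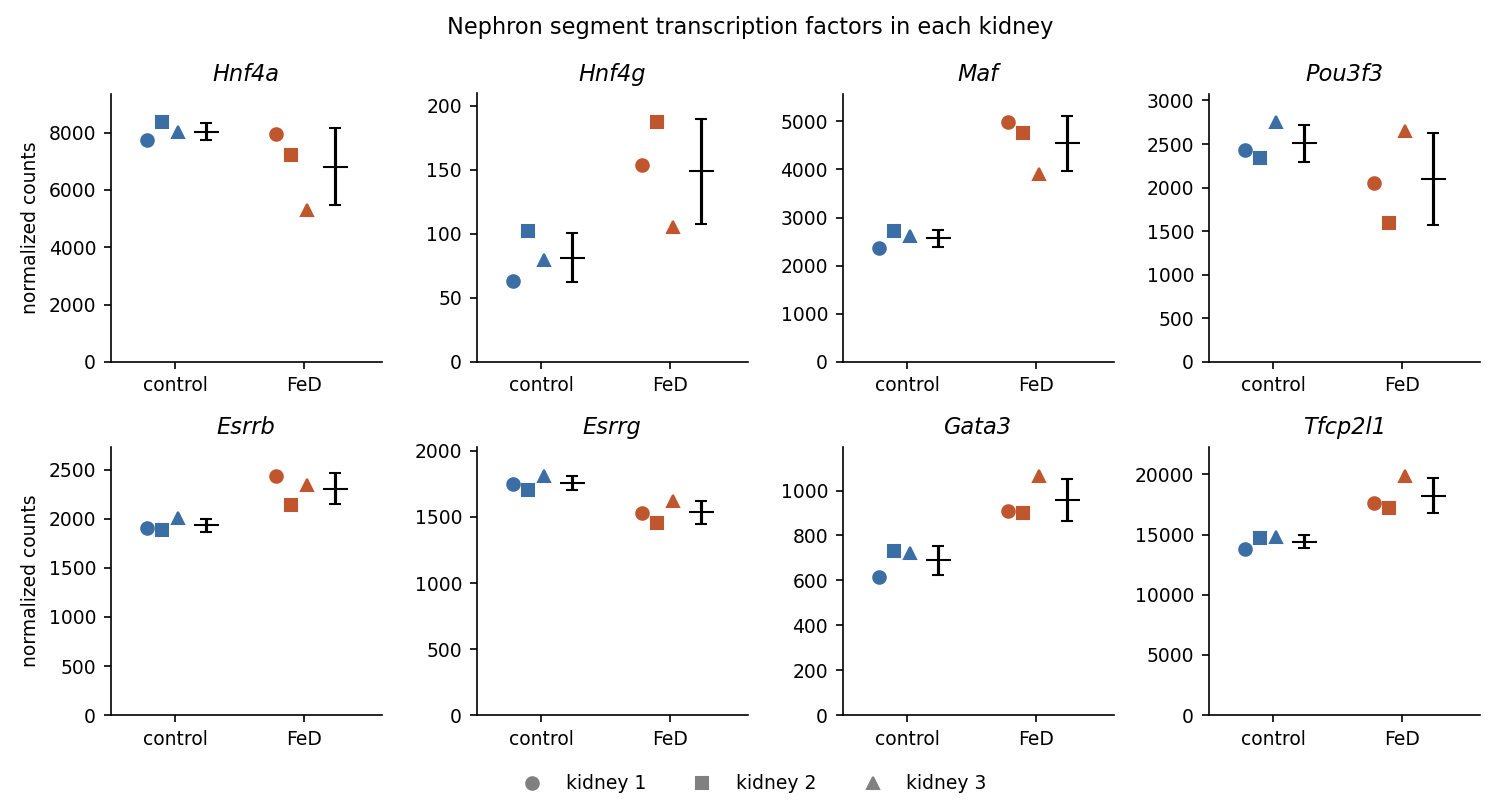
Normalized counts of the 8 transcription factors in each kidney, one panel a gene, with points for the 3 control and 3 FeD kidneys and a line at each group mean with its SD. Maf, Hnf4g, Gata3, Esrrb and Tfcp2l1 lie higher in every FeD kidney than in any control kidney, Esrrg lies lower, and the groups overlap for Hnf4a and Pou3f3.

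Promoter windows of 250 bases before a transcription start were searched for short motifs of the members' factor families and of hypoxia-inducible factors. The members' windows that hold such a motif are shown. Whether these factors regulate each other was not tested. RefSeq windows (GRCm38.p6, a later build than the mm9 used for the counts) were at hand for 6 of the 8 members, 11 windows in all, and 2 windows held a searched motif, in capitals and written 5′ to 3′ along the gene's strand. The motifs were AAGGTCA for estrogen-related receptors, CAAAGT for HNF4, AGATAA for GATA factors, ATGCAAAT for POU factors and ACGTG for hypoxia-inducible factors, each searched on both strands. In the first sequence the capitals are the HNF4 letters on the opposite strand, 28 bases before an Esrrg start (chr1:187608756-187609005, plus strand). The windows of the other Esrrg starts held no searched motif. In the second they are the GATA letters 52 bases before one Hnf4a start (chr2:163506607-163506856, plus strand).
Esrrg promoter: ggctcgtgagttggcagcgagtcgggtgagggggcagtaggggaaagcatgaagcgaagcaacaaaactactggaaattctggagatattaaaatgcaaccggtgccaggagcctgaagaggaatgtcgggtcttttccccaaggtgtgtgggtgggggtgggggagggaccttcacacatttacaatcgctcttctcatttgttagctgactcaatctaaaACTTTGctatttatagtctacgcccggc
Hnf4a promoter: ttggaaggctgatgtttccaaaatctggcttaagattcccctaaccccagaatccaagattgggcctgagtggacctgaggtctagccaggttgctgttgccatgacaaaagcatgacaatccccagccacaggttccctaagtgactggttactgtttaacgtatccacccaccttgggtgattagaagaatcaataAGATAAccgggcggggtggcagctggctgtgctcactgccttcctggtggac
Such letters are common. Of all 32851 promoter windows of the same length, 12.6% held the HNF4 letters, 9.99% the GATA letters, 16.6% ACGTG, 4.08% AAGGTCA and 1.6% ATGCAAAT. A match is a description of the window and not a binding site.

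Hnf4a (chr2:163332544-163398646, plus strand, mm9) was the most abundant member per length in control kidneys together with Tfcp2l1. It had 7738, 8364 and 8022 normalized counts in control kidneys 1 to 3 and 7941, 7206 and 5312 in FeD kidneys 1 to 3. FeD kidney 1 lay inside the control range, FeD kidney 2 below it and FeD kidney 3 well below, so that the groups overlapped. The means were 8041 ± 313.8 (SD) and 6820 ± 1356, a log2 fold change of -0.24 (SE 0.14, adjusted p = 0.19), and Hnf4a was called under none of 15 alternative settings. Most of the difference lay in FeD kidney 3, without which the log2 value was -0.07 (adjusted p = 0.39). Within the high-Xist kidneys, where FeD kidney 3 is the sole FeD library, the difference was -0.60, and within the low-Xist kidneys -0.08.

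Hnf4g, the paralog of Hnf4a (chr3:3508030-3659775, plus strand), was present at a far lower level and rose. Control kidneys had 63.27, 101.8 and 79.18 normalized counts and FeD kidneys 154, 187 and 105.3. The lowest FeD kidney, FeD 3, stood only just above the highest control kidney. The means were 81.41 ± 19.35 and 148.8 ± 41.08, a 1.82-fold rise (log2 0.86, SE 0.25, adjusted p = 0.024) that rests on 66 to 154 reads a library. The direction held in every alternative, but the call was lost without control kidney 1 (adjusted p = 0.086), control kidney 3 (0.079), FeD kidney 1 (0.06) or FeD kidney 2 (0.056), where log2 values were 0.71, 0.84, 0.85 and 0.69, and with the Xist class as a covariate (log2 0.73, adjusted p = 0.059). The difference was 0.35 within the high-Xist and 1.11 within the low-Xist kidneys.

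Because both HNF4 receptors bind one element, their ratio was taken within each kidney. In RPKM, reads scaled to both exon length and library size, Hnf4g was 0.01161 ± 0.00231 of Hnf4a in control and 0.02504 ± 0.004227 in FeD kidneys. On the log2 scale of normalized counts the ratio was -6.93, -6.36 and -6.66 in control kidneys and -5.69, -5.27 and -5.66 in FeD kidneys, and the groups did not overlap. The difference was 1.11 (exact permutation test, two-sided, p = 0.1, adjusted p = 0.11 over the 10 ratios computed), and 0.1 is the smallest p that 3 against 3 kidneys can give. Hnf4a thus remained by far the larger share of HNF4 transcripts in every kidney.

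Maf (chr8:118206842-118231694, minus strand) showed the smallest p-value of the 8. Control kidneys had 2375, 2716 and 2610 normalized counts and FeD kidneys 4980, 4748 and 3895. All FeD kidneys stood clear of the controls, with FeD 3 the lowest of them. The means were 2567 ± 174.3 and 4541 ± 571.6, a 1.77-fold rise (log2 0.82, SE 0.10, adjusted p = 0.00048), called under all 15 alternatives with leave-one-out log2 values of 0.77 to 0.93. The difference was 0.61 within the high-Xist and 0.90 within the low-Xist kidneys. An antisense gene, Gm15655, overlaps 5.34% of the exon length of Maf, and whether the counting used strand is not given in the sources used here.

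Maf is also known in macrophages and some endothelial cells, so the markers of those cells stand beside it. Of 8 macrophage genes 4 rose and 1 fell, with a summed level of 2649 to 2946 normalized counts in control and 2701 to 3114 in FeD kidneys. Itgam, an integrin of myeloid cells, rose (log2 1.37, adjusted p = 0.0096), and Csf1r, the receptor for macrophage colony-stimulating factor, fell (-0.45, adjusted p = 0.006). Of 8 endothelial genes 1 rose and 5 fell, and their sum was 23473 to 23927 in control and 15395 to 21140 in FeD kidneys. The part of either cell type in the Maf difference was not tested.

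Beside these 3 proximal factors, the genes of the proximal tubule itself were mostly lower. Of 24 markers 15 fell and 4 rose (median log2 fold change -0.52), and their summed level was 400246 to 431353 in control and 292508 to 306350 normalized counts in FeD kidneys. Slc5a2, the glucose transporter of the early proximal tubule, fell from 6433 ± 290.8 to 215.5 ± 51.02 (log2 -4.89, adjusted p = 3.3e-06). Cyp27b1, the enzyme that makes active vitamin D, rose from 247.5 ± 25.24 to 3041 ± 1551 (3.62, adjusted p = 0.00019). Kap, the most abundant marker, had 138679 ± 5164 and 141504 ± 16784 (0.03, adjusted p = 0.85). Taken over the mean log2 level of the 24 markers in the same kidney, Maf moved from -1.21 ± 0.06 to 0.56 ± 0.17, a difference of 1.77. Hnf4g differed by 1.81 on this measure and Hnf4a by 0.70, and in all 3 the groups did not overlap (exact permutation test, two-sided, p = 0.1, the smallest possible, and adjusted p = 0.11 for each). Hnf4a, whose own counts did not pass, was therefore higher in each FeD kidney relative to this mean of 24 markers. Single markers differed: 4 of the 24 rose, and Kap at 0.03 stood above the log2 fold change of -0.24 for Hnf4a. All marker lists were chosen with earlier results of these data known, so ratios to them are a description.

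**Figure D2:**
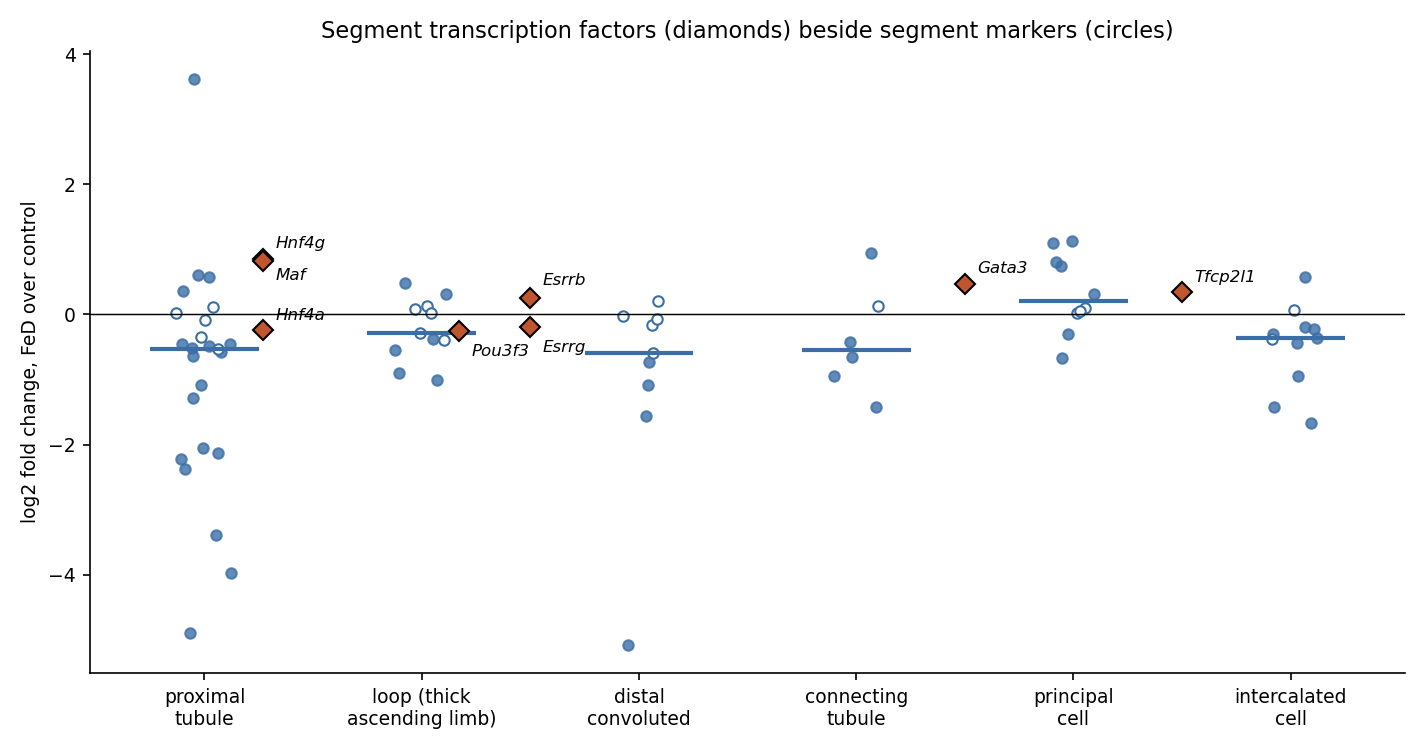
Log2 fold change of FeD over control for segment markers (circles, filled where the adjusted p was under 0.05) and for the 8 transcription factors (diamonds, set between columns where a factor was assigned to both), by nephron segment. Lines mark the median of each marker list, which lies at -0.52 for the proximal tubule and at 0.21 for principal cells, the one list with a median above 0.

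Pou3f3 (chr1:42753991-42757052, plus strand), a gene annotated as a single exon block, did not pass. Control kidneys had 2430, 2343 and 2750 normalized counts and FeD kidneys 2051, 1594 and 2650. FeD kidneys 1 and 2 lay below all controls and FeD kidney 3 above control kidneys 1 and 2. The means were 2508 ± 214.3 and 2098 ± 529.4 (log2 -0.25, SE 0.16, adjusted p = 0.23). Without FeD kidney 3 the log2 value was -0.44 and passed (adjusted p = 0.012), the one setting of 15 that called it, and without FeD kidney 2 it was -0.07. Within the high-Xist kidneys, where FeD kidney 3 is the sole FeD library, the difference was 0.15. Within the low-Xist kidneys, where control kidney 3 is the sole control library, it was -0.59. Xist class and the particular level of FeD kidney 3 cannot be told apart here.

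Markers of the thick ascending limb, where Pou3f3 is expressed, did not share one direction. Of 11 markers 2 rose and 4 fell (median -0.29, but -0.14 without FeD kidney 2 and -0.45 without FeD kidney 3), with summed levels of 137865 to 146762 normalized counts in control and 107683 to 164120 in FeD kidneys. Slc12a1, the sodium-potassium-chloride cotransporter that defines the segment, had 56952 ± 2060 and 62446 ± 18341 (log2 0.13, adjusted p = 0.59). Bsnd, the chloride channel subunit barttin, fell from 3721 ± 211.8 to 1851 ± 126.8 (-1.01, adjusted p = 5.2e-05), and Casr, the calcium-sensing receptor, rose from 964.5 ± 20.52 to 1343 ± 81.88 (0.48, adjusted p = 0.00093). Relative to these markers Pou3f3 went from -0.91 ± 0.09 to -0.95 ± 0.16, and this shift of -0.04 left the groups overlapping (exact permutation test, two-sided, p = 0.7), and its sign turned to 0.11 when the median of the markers replaced their mean.

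Esrrb (chr12:87702067-87862578, plus strand) rose by a small step. Control kidneys had 1907, 1882 and 2009 normalized counts and FeD kidneys 2441, 2136 and 2347. The spread within each group was small and the groups did not overlap. The means were 1932 ± 67.37 and 2308 ± 156.1, a 1.19-fold rise (log2 0.26, SE 0.07, adjusted p = 0.014). The call was lost without control kidney 1 (log2 0.24, adjusted p = 0.06) or control kidney 2 (0.23, adjusted p = 0.07). The difference was 0.31 within the high-Xist and 0.19 within the low-Xist kidneys.

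Esrrg (chr1:189432670-190038764, plus strand) went the other way, by a still smaller step. Control kidneys had 1752, 1704 and 1814 normalized counts and FeD kidneys 1529, 1454 and 1624. Every FeD kidney was below every control. The means were 1757 ± 55.33 and 1536 ± 84.94, a change of -12.5% (log2 -0.19, SE 0.06, adjusted p = 0.035). The call was made under 8 of 15 alternatives, the fewest of the 6 members called, and leaving out any one kidney other than FeD 3 ended it, with adjusted p = 0.095 without control kidney 1, 0.072 without control kidney 2, 0.12 without control kidney 3, 0.098 without FeD kidney 1 and 0.13 without FeD kidney 2. The difference was -0.09 within the high-Xist and -0.28 within the low-Xist kidneys.

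The ratio of Esrrb to Esrrg, which cancels library scaling, was steadier than either gene in the control kidneys. On the log2 scale of normalized counts it was 0.12, 0.14 and 0.15 in control kidneys and 0.67, 0.55 and 0.53 in FeD kidneys. The difference of 0.45 exceeded the spread in either group (SD 0.01 and 0.08), with exact permutation p = 0.1, the smallest possible, and adjusted p = 0.11. Per exon length, Esrrb stood at 1.129 ± 0.01071 times Esrrg in control and 1.544 ± 0.08345 times in FeD kidneys.

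Esrra, the remaining gene of the receptor family, fell. It went from 2396 ± 254.9 to 1094 ± 148.3 normalized counts (log2 -1.13, SE 0.11, adjusted p = 0.00017) and was called under all 15 alternatives. In RPKM, the 3 receptors together summed to 86.59 ± 6.733 in control and 59.34 ± 4.648 in FeD kidneys. Within that sum the share of Esrra was 60.94% ± 1.697 and then 40.55% ± 2.71, that of Esrrb 20.71% ± 0.8677 and 36.04% ± 0.9485, and that of Esrrg 18.34% ± 0.8376 and 23.41% ± 1.791. Esrrg therefore took a larger share of a smaller family total although its own counts were lower. The PGC-1 coactivators of these receptors also split: Ppargc1a rose from 2859 to 3513 (log2 0.30, adjusted p = 0.0049) and Ppargc1b fell from 270.9 to 152.6 (-0.82, adjusted p = 0.0045).

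**Figure D3:**
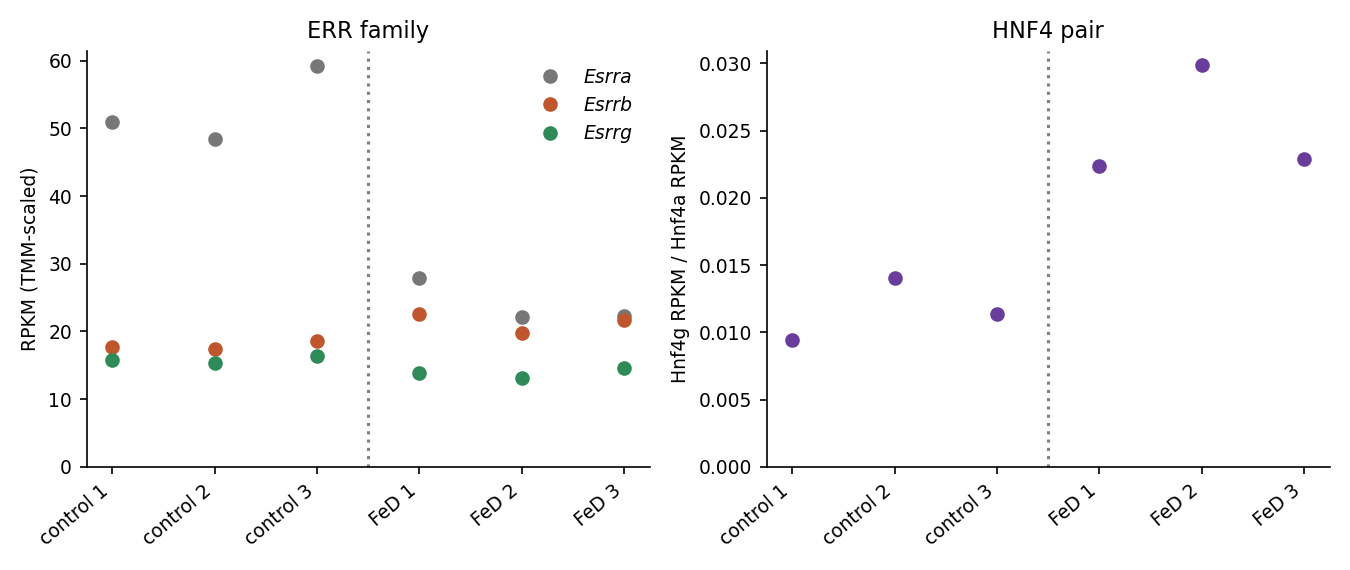
RPKM of the 3 estrogen-related receptors in each kidney (left) and the ratio of Hnf4g to Hnf4a RPKM in each kidney (right), with a dotted line between control and FeD kidneys. Esrra lies far above Esrrb in control kidneys and close to it in FeD kidneys 2 and 3, and the Hnf4g ratio is higher in every FeD kidney than in any control kidney.

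The distal convoluted tubule, a further site of both receptors, had 4 of 9 markers lower and 0 higher in edgeR's test (5 lower and 0 higher at an unadjusted p under 0.05, and 5 and 0 in DESeq2). The median was -0.59, or -0.33 without FeD kidney 3, with sums of 54120 to 63842 normalized counts in control and 37318 to 41358 in FeD kidneys. Slc12a3, the cotransporter that defines the segment, fell from 22973 ± 2774 to 7788 ± 1711 (log2 -1.56, adjusted p = 0.00026), and the calcium-binding protein Pvalb from 358.2 ± 39.03 to 11.51 ± 9.56 (-5.08, adjusted p = 5.9e-05). Relative to the 20 loop and distal convoluted tubule markers, Esrrb moved from -0.86 ± 0.04 to 0.00 ± 0.05 while Esrrg was at -0.94, -1.02 and -1.04 in control kidneys and at -0.66, -0.62 and -0.49 in FeD kidneys. The differences were 0.86 and 0.41 without overlap (exact permutation p = 0.1, adjusted p = 0.11 for each). A receptor that fell in normalized counts was thus above its control level relative to the mean log2 level of these 20 markers. That mean includes Pvalb, which had only 3.453 to 22.07 normalized counts in FeD kidneys. With the median marker level of each kidney in place of the mean, the Esrrg difference was 0.29. The log2 fold change of -0.19 for Esrrg stood above the median change of the loop list (-0.29) and of the distal convoluted tubule list (-0.59). Single markers differed: 2 of the 11 loop markers rose, and Slc12a1 at 0.13 and Kcnj16 at 0.21 also stood above Esrrg.

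Gata3 (chr2:9778705-9811661, minus strand) rose. Control kidneys had 616.4, 729 and 724.2 normalized counts and FeD kidneys 907.8, 898.5 and 1067. FeD kidney 3 was the highest and the groups did not overlap. The means were 689.9 ± 63.69 and 957.7 ± 94.65, a 1.39-fold rise (log2 0.47, SE 0.10, adjusted p = 0.0063), called under all 15 alternatives with leave-one-out log2 values of 0.40 to 0.54. The difference was 0.67 within the high-Xist and 0.32 within the low-Xist kidneys. Gm13256 on the opposite strand and 9230102O04Rik on the same strand overlap 5.83% of its exon length.

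Gata3 is expressed by T cells and mesangial cells too. Of 8 T cell genes 4 passed the filter, 3 of them fell and 0 rose in edgeR's test (0 higher also at an unadjusted p under 0.05 and in DESeq2, which called 2 lower), and the summed level was 163 to 195.8 normalized counts in control and 87.18 to 102.6 in FeD kidneys. Cd8a, the T cell coreceptor, fell (log2 -2.22, adjusted p = 0.0015) and the kinase Lck did not pass (0.11, adjusted p = 0.7). Of the mesangial, pericyte and fibroblast list 4 of 8 tested genes rose and 3 fell, with sums of 36664 to 38292 in control and 25473 to 33434 in FeD kidneys, and Ren1 was at 0 in all 6 kidneys. Within that list the collagens Col3a1 (16690 to 8077) and Col1a1 (7752 to 4419) made up most of the control sum and fell, as did Itga8, while Pdgfrb (log2 0.59, adjusted p = 0.003), Pdgfra (0.60, adjusted p = 0.039), Tagln (0.47, adjusted p = 0.00084) and Dcn (0.83, adjusted p = 0.0061) rose, and the list's median was 0.25. The part of either cell type in the Gata3 difference was not tested.

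Tfcp2l1 (chr1:120524522-120581744, plus strand) had the most normalized counts of the members and rose. Control kidneys had 13772, 14699 and 14788 and FeD kidneys 17632, 17210 and 19915. The groups did not overlap and FeD kidney 3 was again the highest. The means were 14420 ± 562.6 and 18252 ± 1455, a 1.27-fold rise (log2 0.34, SE 0.08, adjusted p = 0.012). Without control kidney 1 the log2 value was 0.30 and the call was lost (adjusted p = 0.057), and no other single kidney ended it. The difference was 0.48 within the high-Xist and 0.24 within the low-Xist kidneys.

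The cells of the connecting tubule and collecting duct did not share one direction. Of 10 principal cell markers 5 rose and 2 fell (median 0.21, or 0.40 without FeD kidney 2), with sums of 32463 to 41944 normalized counts in control and 43642 to 66920 in FeD kidneys, and Aqp2, their vasopressin-regulated water channel, rose from 12451 ± 3565 to 27244 ± 8634 (log2 1.13, adjusted p = 0.0093). The principal cell markers that fell were the vasopressin receptor Avpr2 (-0.67, adjusted p = 0.031) and Hsd11b2 (-0.30, adjusted p = 0.025). Both calls were lost under some alternatives (adjusted p up to 0.11 and 0.12). Of 11 intercalated cell markers 8 fell and 1 rose (median -0.36), with sums of 26745 to 29524 normalized counts in control and 20799 to 22201 in FeD kidneys. Slc26a4, the chloride-bicarbonate exchanger pendrin, fell from 1503 ± 156.8 to 474.1 ± 113.4 (-1.67, adjusted p = 0.00018), and the proton pump subunit Atp6v0d2 rose from 964.4 ± 45.2 to 1436 ± 126.7 (0.57, adjusted p = 0.00088). Of 6 connecting tubule markers 4 fell and 1 rose (median -0.55), with the calcium channel Trpv5 rising from 305.9 ± 74.36 to 591.6 ± 128 (0.95, adjusted p = 0.0059) and the kallikrein Klk1 falling from 34005 ± 650.4 to 12603 ± 6663 (-1.43, adjusted p = 0.0067). Against the 16 connecting tubule and principal cell markers Gata3 differed by 0.44, from -2.19 ± 0.13 to -1.75 ± 0.10. Against the 21 principal and intercalated cell markers Tfcp2l1 differed by 0.46, from 2.64 ± 0.06 to 3.10 ± 0.10, and neither overlapped (exact permutation p = 0.1, adjusted p = 0.11 for each). Each of these marker sets pools principal cell markers, whose median rose, with a list whose median fell. The members' own log2 fold changes were 0.34 (Tfcp2l1) and 0.47 (Gata3), beside the principal cell median of 0.21. Ratios to principal cell markers alone were not computed.

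**Figure D4:**
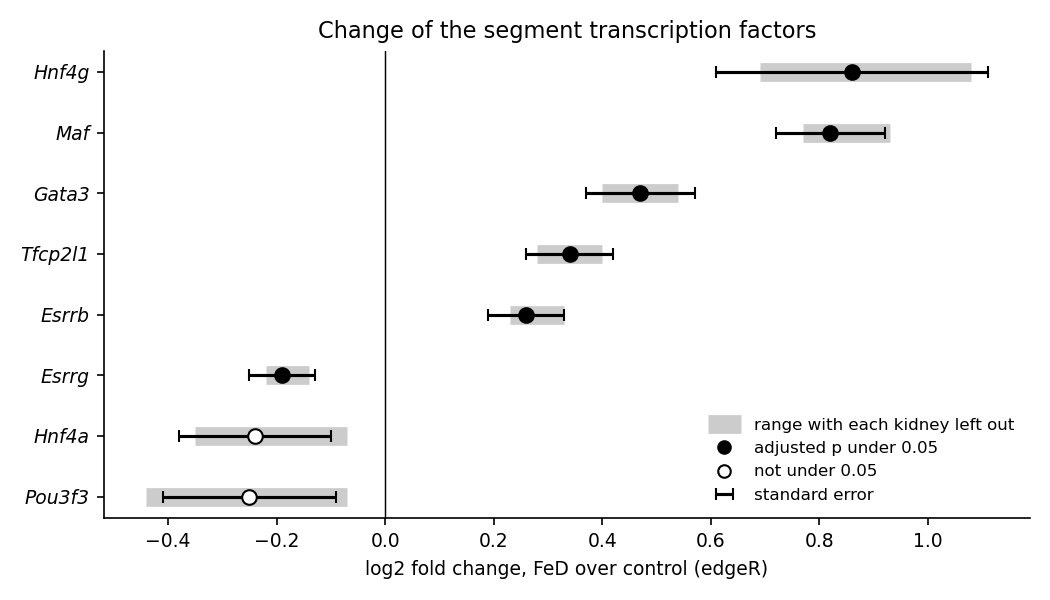
Log2 fold change of FeD over control for each member (filled where the adjusted p was under 0.05), with bars for the standard error and grey bands for the range when each kidney is left out. Hnf4g (0.86) and Maf (0.82) lie farthest above 0, and Esrrg (-0.19), Hnf4a (-0.24) and Pou3f3 (-0.25) lie below it.

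Levels between genes can be compared per exon length. In control kidneys the order of RPKM was Hnf4a (89.72 ± 3.501), Tfcp2l1 (87.12 ± 3.399), Pou3f3 (45.86 ± 3.919), Esrrb (17.9 ± 0.6239), Maf (17.44 ± 1.184), Esrrg (15.85 ± 0.4991), Gata3 (9.711 ± 0.8966) and Hnf4g (1.047 ± 0.2489). Hnf4a and Tfcp2l1 overlapped, as did Esrrb with Maf and Maf with Esrrg. In FeD kidneys Tfcp2l1 (110.3 ± 8.791) stood above Hnf4a (76.09 ± 15.13) without overlap, followed by Pou3f3 (38.38 ± 9.682), Maf (30.86 ± 3.884), Esrrb (21.37 ± 1.446), Esrrg (13.85 ± 0.7662), Gata3 (13.48 ± 1.332) and Hnf4g (1.914 ± 0.5285). There Pou3f3 overlapped Maf and Esrrg overlapped Gata3, while Maf no longer overlapped Esrrb. In no member did windows of 100 exon bases occur in another protein-coding gene (0%), so the paralogs named here did not share such stretches.

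Beyond the 8, a list of 51 tested transcription factors and coregulators of the kidney had 14 called higher, 7 lower and 30 not passing, with a median log2 fold change of 0.06. Over all tested genes 22.4% were called higher and 23.3% lower, with a median of 0.00. Of 9 other proximal and pan-nephron factors, the fatty acid sensor Ppara (log2 0.52, adjusted p = 0.0034) and the bile acid receptor Nr1h4 (0.58, adjusted p = 0.00086) rose, and the carbohydrate-responsive Mlxipl (-0.55, adjusted p = 0.0094) and Lhx1 (-0.39, adjusted p = 0.045) fell. Of 19 factors of the loop, distal tubule and collecting duct, Tfap2a (0.64, adjusted p = 0.0091), Dmrt2 (0.41, adjusted p = 0.02) and Foxi1, the master regulator of intercalated cells (0.39, adjusted p = 0.014), rose, and Hmx2 fell (-0.46, adjusted p = 0.035). The calls for Lhx1 and Hmx2 were lost under 9 and 10 of 15 alternatives, that for Foxi1 without control kidney 1 or 2 (adjusted p up to 0.064) and that for Dmrt2 without control kidney 2, control kidney 3 or FeD kidney 1 (up to 0.088). Without control kidney 2 the count called higher was 9.

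Of 17 partners and coregulators of HNF4 and the estrogen-related receptors, 6 rose and 4 fell, beside 45.7% of all tested genes called in either direction. The acetyltransferases Crebbp (log2 0.56, adjusted p = 0.0003) and Ep300 (0.41, adjusted p = 0.0021) and the coactivator Ncoa2 (0.63, adjusted p = 0.00032) rose with Ppargc1a, as did the corepressor Ncor1 (0.28, adjusted p = 0.023), whose call was lost without any 1 of the control kidneys and with the gene length correction (adjusted p up to 0.12). Of the COUP-family receptors, which bind elements like those of HNF4, Nr2f2 rose (0.47, adjusted p = 0.0066) and Nr2f6 fell (-0.84, adjusted p = 0.0023). Only Esrra among the 51 passed the 2-fold threshold.

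**Figure D5:**
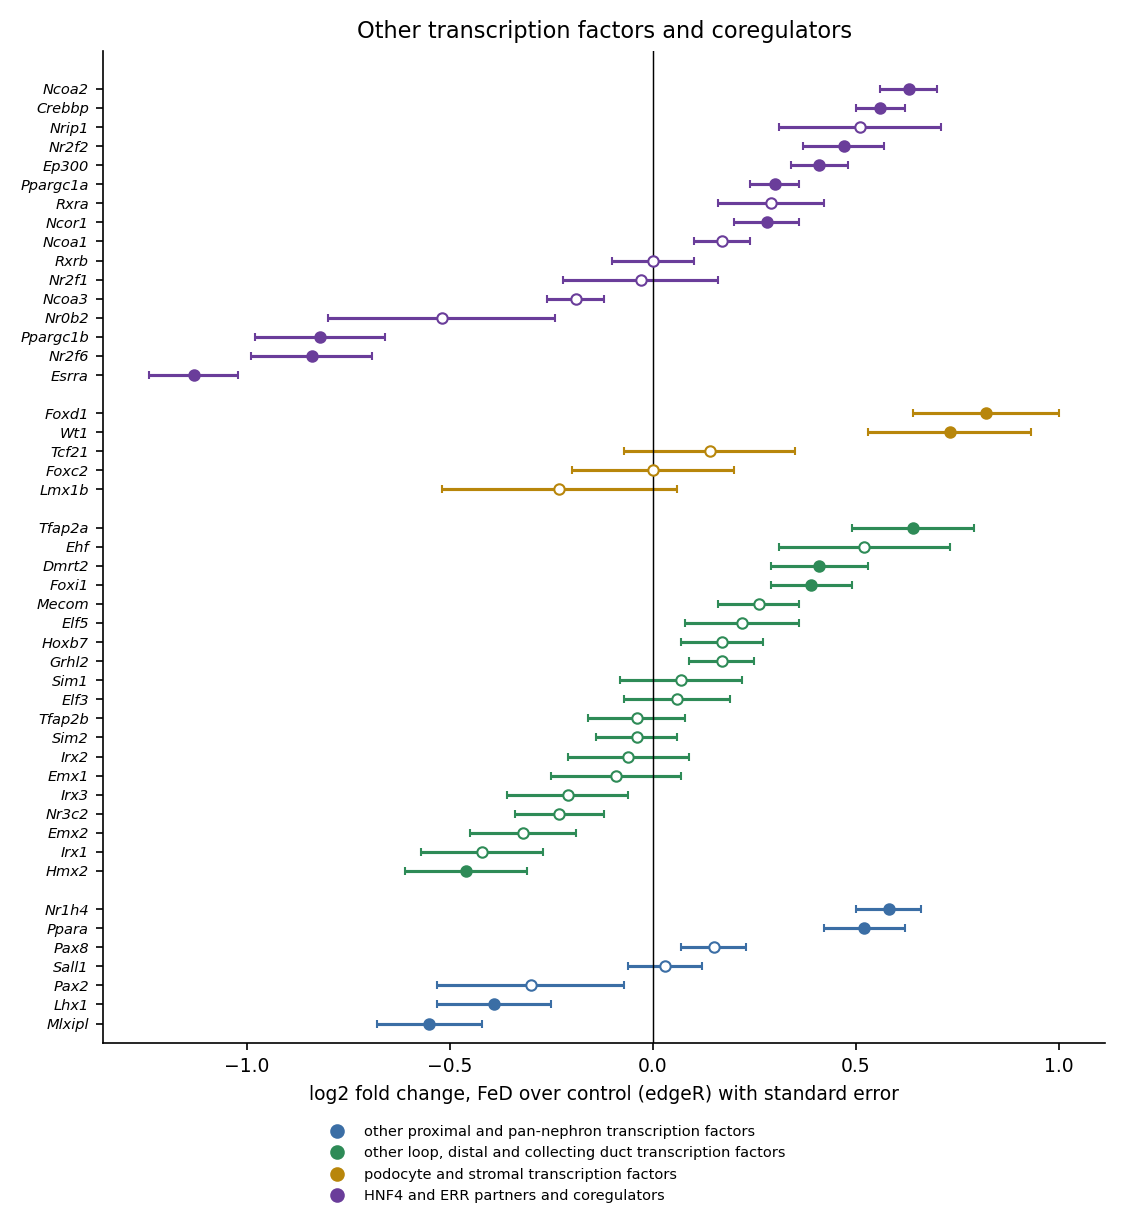
Log2 fold change of FeD over control, with its standard error, for 47 of the 51 other transcription factors and coregulators, coloured by group and filled where the adjusted p was under 0.05. Esrra (-1.13) is the lowest and Foxd1 (0.82) the highest.

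For each member the genes with the most similar pattern over the 6 kidneys were sought among 12933 genes averaging 50 normalized counts or more, by the root mean square difference in log2 CPM after centring each gene on its own mean. This is a description over 6 kidneys that share one contrast. Tfcp2l1 was nearest to Foxo4 (0.01), Fbxo33 (0.02) and Prkaa2 (0.02), and Esrrg to Prkcd, Gsk3a and Lrfn3 (each 0.02). Maf had Slc35g1 at 0.03, Stx3 and Tpt1 at 0.05, and Gata3 had Ptgs1 and Samd8 at 0.04 and Mpp6 at 0.05. Hnf4a had Hyi and Slc9a8 at 0.03 and Apoe at 0.04, Esrrb had Srrm2, Cebpg and Phf10 at 0.03, and Pou3f3 had F8a at 0.05 and Pnpla6 and Noa1 at 0.06. How crowded these neighbourhoods were differed widely: within 0.1 there were 1384 genes for Esrrg, 1019 for Esrrb and 950 for Tfcp2l1 but 44 for Maf and 0 for Hnf4g, whose nearest genes, A630066F11Rik and Akr1c12, were at 0.14 and Zfp112 at 0.15.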

How the data were processed

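RNA from 6 whole kidneys was sequenced after Illumina TruSeq library preparation. The authors deposited raw read counts per gene, which they made with CASAVA 1.8.2, Trimmomatic, TopHat2 2.0.11 and HTSeq on mm9 according to the submitters' processing notes. The counting mode, annotation and use of strand are not given in the sources used here. Both count tables were joined by gene symbol, and kidneys were grouped by their titles. Every column was mapped to a kidney and no row lacked a gene name.

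Genes were kept by edgeR 4.0.16 filterByExpr in R 4.3.3, scaled by TMM and tested with the quasi-likelihood test of FeD against control over all 15145 genes, with Benjamini-Hochberg adjustment and a biological coefficient of variation of 0.128. Standard errors were derived from each gene's F statistic and log2 fold change. RPKM used merged exon lengths of GENCODE vM1 on mm9, where Tfcp2l1 is listed as Tcfcp2l1. Ratios within a kidney were compared by exact permutation, which for 3 against 3 kidneys cannot give a p under 0.1. Promoter windows came from RefSeq (GRCm38.p6). The code was tested on simulated data. The genes named are the 8 members, every listed factor that was called (a few are not reported here), the most abundant and the most raised and lowered marker of each list, and the 3 genes nearest to each member, with a few defining markers named outside this rule after their values were seen. The members and lists were chosen with earlier results of these data known. Alternatives were DESeq2 1.42.0 and its size factors, library size alone, 2 low-count filters, a replicate block, a gene length correction, both together, leaving out each kidney and, added after seeing the data, the Xist class as a covariate.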

Additional observations from a re-analysis of the deposited data

How the results depend on the processing

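Of 408 recomputed values, main ones apart, 363 did not change by the measure used for their kind: fold changes kept direction and side of the threshold, medians and ratios moved by less than 1 SD between kidneys, and counts of calls stayed within 1.5 times the reported count. The count of members called higher was 3 rather than 5 with the replicate block and gene length correction together and ran from 2 to 5 when single kidneys were left out; the count called lower was 0 rather than 1 with DESeq2 and with the Xist class, and 0 to 2 with a kidney left out. Among the 51 other factors, 14 were called higher, or 9 to 19 with a kidney left out. Replicate block with gene length correction gave Esrrb 0.19 (adjusted p = 0.059) and Tfcp2l1 0.23 (0.069). DESeq2 gave Esrrg -0.18 (0.074), and the Xist class gave Esrrg -0.19 (0.061) and Hnf4g 0.73 (0.059). Leaving out single kidneys gave Hnf4g 0.69 to 1.08, Pou3f3 -0.44 to -0.07, Esrrb 0.23 to 0.33, Esrrg -0.22 to -0.14 and Tfcp2l1 0.28 to 0.40. The median of distal convoluted tubule markers was -0.36 with at least 10 counts in every kidney, -0.69 with block and length, -0.82 with the Xist class and -0.68 to -0.33 with a kidney left out. That of the loop ran from -0.45 to -0.14 and that of principal cells from 0.17 to 0.40 with a kidney left out, and that of intercalated cells was -0.25 with the length correction, with or without the block. With the median of the segment markers in place of their mean, Maf stood 1.97, Esrrb 0.74 and Esrrg 0.29 higher, and Pou3f3 reversed to 0.11. Adding 1 CPM gave Esrrb 0.77 and Esrrg 0.33. Pou3f3 over its markers ran from -0.13 to 0.03 with a kidney left out, reversed at 0.01 without control kidney 3 and at 0.03 without FeD kidney 2. The causes were not tested.

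The replicate numbers did not pair the kidneys: same-numbered deviations correlated at -0.16, 0.00 and -0.03. With the replicate block alone no member's call changed, and Esrrb had an adjusted p of 0.02, Esrrg 0.045 and Pou3f3 0.055. Leaving out globin and mitochondrial genes was not run, since the 10 globin rows were at 0 and no mitochondrial row was present. Depth limited Hnf4g most, at 66 to 154 reads a kidney.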

Other observations

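Some factors of the glomerulus and stroma rose, and the podocyte markers did not pass. Of 6 such factors 3 were called, all of them higher, beside 45.7% of all tested genes called in either direction. Among them Wt1, needed in podocytes, rose from 503.3 to 833 normalized counts (log2 0.73, adjusted p = 0.02). Foxd1, known in stromal progenitors and podocytes, rose from 65.32 to 115.2 (0.82, adjusted p = 0.0064). The Wt1 call was lost without control kidney 2 or 3 (adjusted p = 0.077 at the highest). Tcf21 (0.14, adjusted p = 0.61) and Lmx1b (-0.23, adjusted p = 0.55) did not pass. Of 7 podocyte markers 0 were called by edgeR, 0 at an unadjusted p under 0.05 and 0 by DESeq2, with summed levels of 13978 to 15402 in control and 11157 to 15853 normalized counts in FeD kidneys.

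Genes of dividing cells were lower, and those of nephron progenitors did not share one direction. All 6 proliferation genes fell in edgeR's test, among them Mki67 (log2 -2.22, adjusted p = 5.3e-05) and Cdk1 (-1.08, adjusted p = 0.00073), and their sum was 2021 to 2302 normalized counts in control and 549.9 to 706.9 in FeD kidneys. Of 4 tested nephron progenitor genes 2 fell, Crym (-1.60, adjusted p = 0.00021) and Meox1 (from 326.7 to 164.3 normalized counts, adjusted p = 0.00048), and Eya1 rose from a mean of 12.77 to 49.33 (1.92, adjusted p = 0.015), a call lost without control kidney 2 or 3 (adjusted p up to 0.061). Cited1 did not pass (-0.52, adjusted p = 0.082). Six2 had a mean of 3.62 normalized counts in control and 6.189 in FeD kidneys and did not pass the filter on low counts. The part of cell composition in any member's difference was not tested. Of the 2 red blood cell genes tested, Slc4a1 fell (log2 -1.42, adjusted p = 0.0051), and it is also on the intercalated cell list. Alas2 did not pass (-1.17, adjusted p = 0.081).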
